A study of Mus musculus with 2 samples.

Results

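Cytosolic ribosomal proteins are the protein components of the ribosomes that translate nuclear-encoded mRNAs. They were taken as all genes whose symbol had the form of a small subunit (Rps, Rpsa) or large subunit (Rpl, Rplp0 to Rplp2) protein, without pseudogenes and the ribosomal S6 kinases. The rule found 84 of the 32285 listed genes, 32 of the small and 52 of the large subunit. The paralogues Rpl22l1, Rps27l, Rpl36al, Rpl7l1, Rpl39l, Rpl3l and Rpl10l are among them. The symbols Fau and Rack1, which also encode parts of the ribosome, do not have this form and are described separately. No measured value was used to choose the members.

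Live spleen cells of C57BL/6 mice with chronic anaemia were profiled in 2 droplet libraries made with the 10x Genomics 3′ v3.1 chemistry. In the first, mice had received PHZ (the usual short form of phenylhydrazine, a compound that destroys circulating red cells) at intervals of 3 days over 1 month. In the second, mice had been bled on the same schedule, so both groups were anaemic and no untreated group was analysed here. Each group was a single library, and the number of mice pooled in it was not stated.

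Ribosomal protein mRNAs are among the most abundant mRNAs of growing cells, and most of them begin with a run of pyrimidines (the 5′ terminal oligopyrimidine, or TOP, motif) through which their translation is controlled together. Erythroid precursors need many ribosomes to make globin, and loss of a single ribosomal protein allele causes the inherited red cell aplasia Diamond-Blackfan anaemia. Late in maturation the erythroid cell stops making ribosomes, expels its nucleus, and as a reticulocyte clears its remaining ribosomes and RNA.

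The files held unique molecular identifiers (UMIs), each of which marks a captured mRNA molecule at its 3′ end, so that counts do not scale with gene length. The cells kept numbered 6113 (PHZ) and 8953 (bleeding), with medians of 12242 and 8045 UMIs. Ribosomal protein genes held 8776674 and 13041895 UMIs in these cells. The libraries shared 15 cell barcodes. With 1 library per group no difference between treatments or classes could be tested against animals: all intervals are exact 95% intervals that cover counting error only, and a ratio was called where it was past 1.5-fold. Levels are given in CPM, counts per 1000000 UMIs other than haemoglobin, and shares as percent of those UMIs, because haemoglobin took up to 94.2% of the UMIs of a class. Low levels in bulk sums cannot tell fewer mRNAs per cell from fewer expressing cells, and reads that a member shares with one of its many processed pseudogenes may have been dropped or split. For example, the near-identical row Rps27rt held 2648 and 4089 UMIs beside 135525 and 251425 for Rps27. Dropped reads are in neither row, so these counts do not give the size of the uncertainty in the level of Rps27.

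Erythroid cells were divided by the share of haemoglobin genes in their UMIs, a measure of maturation that did not use ribosomal protein genes. The cells with under 20% globin (437 PHZ, 216 bleeding) included the precursor cluster led by Car1, Hemgn, Klf1 and Birc5. Further ranges were 20 to 50% (326 and 138 cells), 50 to 80% (901 and 395 cells) and 80% or more (1680 and 1675 cells). Barcodes with 80% or more globin and fewer than 300 detected genes (2545 and 3000), a profile of reticulocytes and red cells, were described beside them. The words early and late stand for the ranges of under 20% and of 80% or more globin.

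Ribosomal protein mRNA made up far more of the non-haemoglobin mRNA in the least haemoglobinised erythroid cells than in the most haemoglobinised ones. In cells with under 20% globin the share was 25.7% (PHZ) and 25.2% (bleeding). It was 15.9% and 12.4% at 20 to 50% globin, 5.22% and 4.27% at 50 to 80%, and 5.48% and 5.11% at 80% or more. The order of the ranges was the same in both libraries, with most of the difference lying between 20 and 60% globin. In bins of 10 points the share went from 19.8% (PHZ) and 17.5% (bleeding) at 20 to 30% globin, through 15.7% and 10.7% at 30 to 40% and 11.8% and 7.92% at 40 to 50%, to 6.73% and 5.55% at 50 to 60%. It was lowest in the bin of 70 to 80%, at 3.72% and 3.02%, and higher again at 80 to 90%, at 6.52% and 5.16%.

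**Figure D1:**
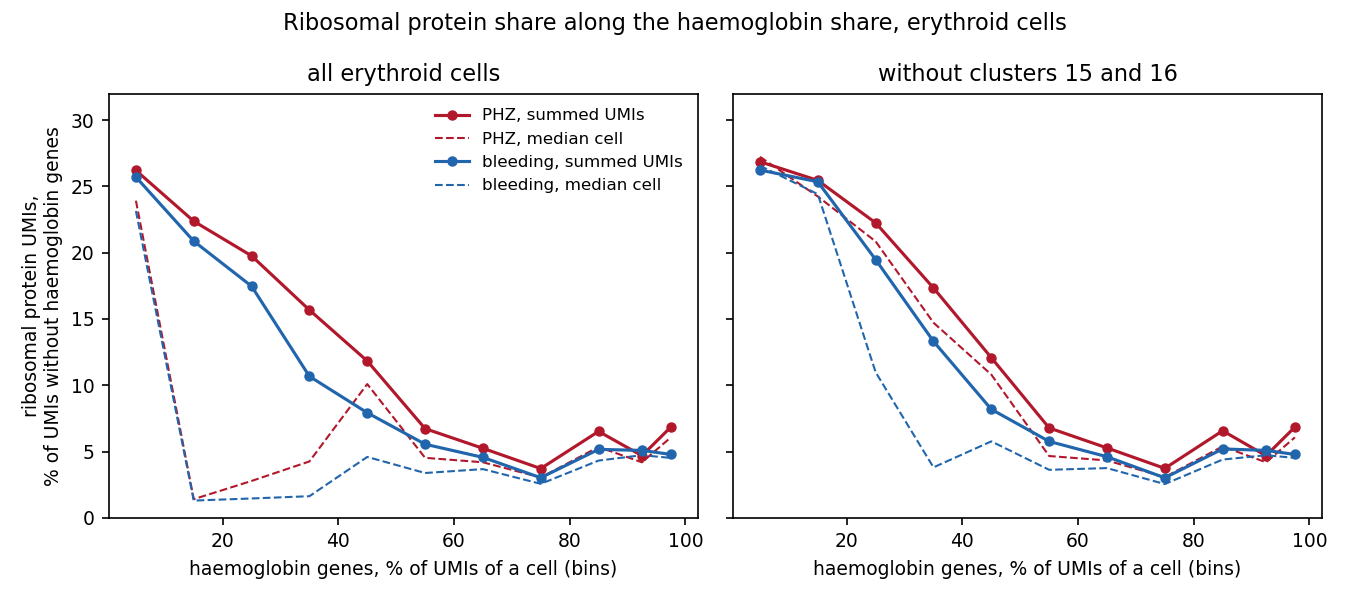
Ribosomal protein UMIs as percent of UMIs without haemoglobin genes (y axis) in bins of the haemoglobin share of erythroid cells (x axis, percent of UMIs), for all erythroid cells and without clusters 15 and 16. Points and solid lines are summed UMIs of each library and dashed lines the median cell. The summed share lies at 26.2% (PHZ) and 25.7% (bleeding) in the first bin, and from 50% globin on at no more than 6.85% in any bin of either library.

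In mean molecules per cell the difference was larger, because the mean mRNA total without haemoglobin was also lower in later ranges. A cell with under 20% globin held on average 8412 (PHZ) or 7783 (bleeding) ribosomal protein UMIs. The mean was 1681 and 901 at 20 to 50% globin, 278 and 198 at 50 to 80%, 85.1 and 65.6 at 80% or more, and 33.8 and 30.2 in the few-gene barcodes. The median cell held 165 (PHZ) and 97.5 (bleeding) under 20% globin and 756 and 106 at 20 to 50%. It held 166 and 115 at 50 to 80%, 58.5 and 53 at 80% or more and 27 and 29 in the few-gene barcodes. The larger difference thus holds for the means, and the median did not fall from range to range. An estimate of the free RNA in each droplet, from barcodes of 10 to 100 UMIs, came to 12.9 and 12.2 ribosomal protein UMIs per barcode, beside which the values of the few-gene barcodes have to be read.

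The erythroid cells with little globin were of 2 kinds. Clusters 15 and 16, which were led by Tmcc2, Sox6, Ank1, Sptb and Slc4a1, made up 45.5% (PHZ) and 47.7% (bleeding) of the cells with under 20% globin but had medians of only 2208 and 3898 UMIs over both libraries. Ribosomal protein genes held 0.968% and 0.946% of the non-haemoglobin UMIs in cluster 15, and 2.45% and 2.80% in cluster 16. Malat1, a nuclear RNA, held 6.40% and 6.41% in cluster 15 and 1.87% and 2.03% in cluster 16, against 0.366% and 0.391% over all cells with under 20% globin. It also held 3.10% and 3.03% at 50 to 80% globin, so a high value was not particular to these clusters. With their low ribosomal protein shares, the median cell under 20% globin had a share of only 3.74% and 3.50%, far from the summed share. Without clusters 15 and 16 the median was 26.8% and 26.3% and the summed share 26.7% and 26.2%. The source of these barcodes was not tested.

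Set against the other spleen cells, early erythroid cells and T cells had the most ribosomal protein mRNA relative to other mRNA. T cell-like cells (543 PHZ, 2156 bleeding) had a share of 26.5% and 27.1%, B cell-like cells (1587 and 3596) of 18.9% and 20.7%, and the unnamed antigen-presenting cluster 22 (60 and 108), led by H2-Aa, Cd74 and Adgrl3, of 19.3% and 19.1%. NK cell-like cells (65 and 159) followed with 15.9% and 16.1% and monocyte-like cells (154 and 71) with 15.3% and 15.4%. Of the non-erythroid classes named here with 50 cells or more on both sides, the neutrophil-like cells (294 and 111) were lowest, at 7.23% and 4.87%. Plasma cell-like cells, 7 and 47 in number, had 8.73% and 9.30% although their absolute count was high, at 2477 and 2483 ribosomal protein UMIs per cell against 2343 and 2231 in T cell-like cells. Their median total was 30549 and 29420 UMIs.

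**Figure D2:**
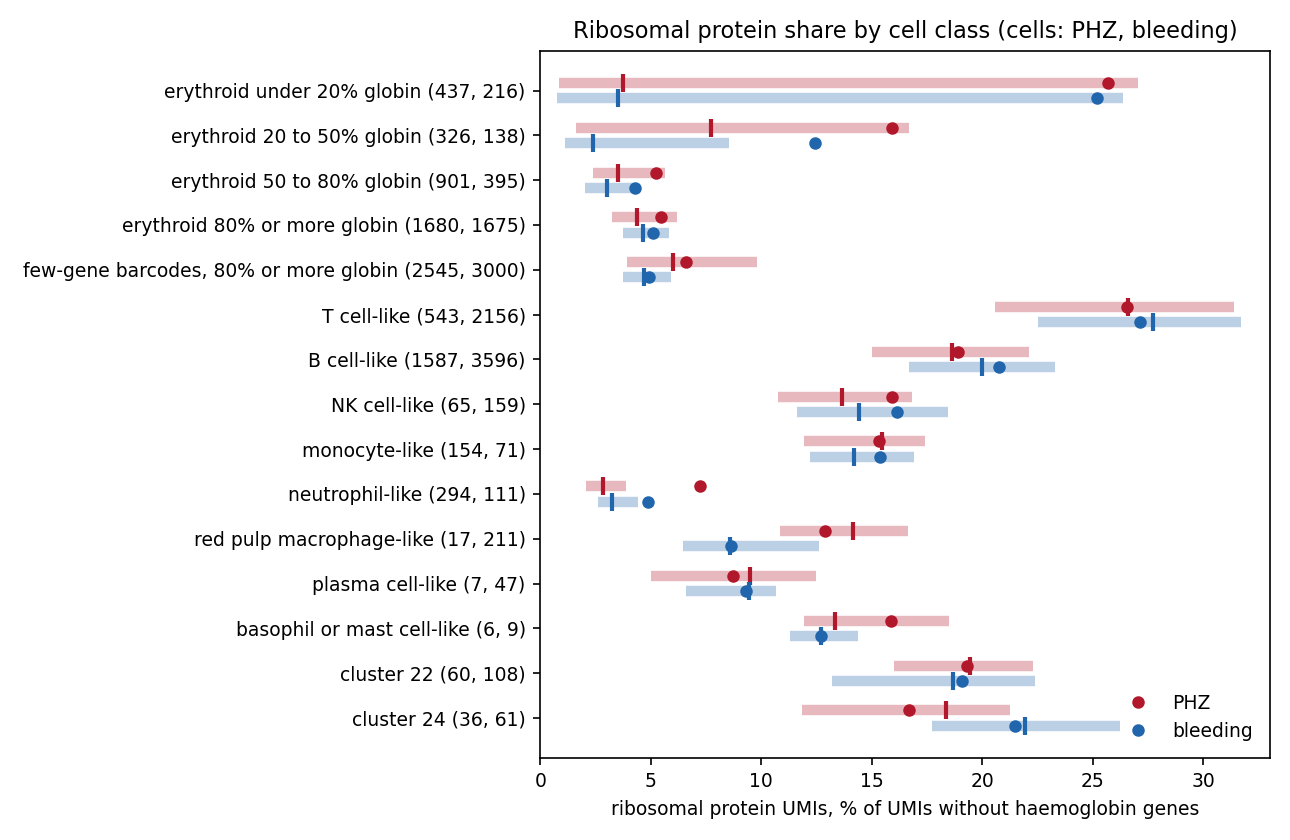
Ribosomal protein share of UMIs without haemoglobin genes (x axis, percent) for each erythroid range and cell class (y axis, with the number of PHZ and bleeding cells). Points are summed UMIs and horizontal lines the middle 50% of cells, with a tick at the median cell, in red for PHZ and blue for bleeding. T cell-like cells and erythroid cells with under 20% globin lie highest, at 25.2 to 27.1%, and the later erythroid ranges and neutrophil-like cells lowest.

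Nearly all members had a lower level late in maturation, but by very different amounts. Between the cells with under 20% and those with 80% or more globin, 80 of the 81 members with at least 10 CPM were lower by over 1.5-fold in each library, beside 82.4% (PHZ) and 82.1% (bleeding) of all tested genes. The members' median log2 ratio was -2.71 and -2.69 beside -2.99 and -2.80 over all tested genes, and 53 (PHZ) and 43 (bleeding) of the 81 members lay above that median gene. The single members ranged from -4.39 to -0.03 with PHZ and from -4.61 to -0.19 with bleeding. The order of the members was similar in both libraries (Spearman 0.91 over 81 members, which share a library preparation). Small subunit members had a median of -3.07 and -2.89 and large subunit members of -2.36 and -2.45, and both ranges overlapped widely. The 20 members mutated in Diamond-Blackfan anaemia had a median of -2.71 and -2.60. Of these, Rps19, the gene most often mutated in the disease, had 3333 CPM (PHZ) and 3277 CPM (bleeding) early and 510 and 541 late.

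Rpl41, the smallest protein of the large subunit, was the member whose level was best kept. Its level was 4712 CPM (PHZ) and 3991 CPM (bleeding) in cells with under 20% globin and 4625 and 3501 CPM in cells with 80% or more, a log2 ratio of -0.03 and -0.19. Rplp2, an acidic protein of the stalk that recruits elongation factors, had 4290 and 3826 CPM early and 2682 and 2079 CPM late. The other proteins of the stalk did not share this: Rplp0, its base, had a log2 ratio of -1.502 and -1.606, and Rplp1, the partner of Rplp2, of -2.72 and -2.69. Rps29, a small zinc-binding protein of the small subunit, had 4345 and 3841 CPM early and 1946 and 2109 late. Rpl38, of the large subunit, had 2490 and 2183 CPM early and 1343 and 950 late. Rpl10, which is added to the large subunit in its last steps of assembly, had 2785 and 2924 CPM early and 1483 and 1012 late.

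At the other end stood Rps18, a protein of the head of the small subunit, with 4751 CPM (PHZ) and 4711 CPM (bleeding) early and 226 and 323 CPM late, log2 ratios of -4.39 and -3.87. Rpl14 and Rpl18, both of the large subunit, had log2 ratios of -4.22 and -3.93 and of -4.25 and -3.88. Rpl14 was at 2998 and 2939 CPM early and 161 and 193 late, and Rpl18 at 2819 and 3014 early and 149 and 204 late. Rps18 and Rpl41 thus were at nearly the same level early in the PHZ library and far apart late. In molecules, a late PHZ cell held on average 7.19 UMIs of Rpl41 and 0.352 of Rps18, against 154 and 156 early. The lowly expressed paralogues Rps27l (log2 -3.46 and -4.61) and Rpl7l1 (-4.01 and -3.66) were also far below the members' median. Neither transcript length (Spearman -0.09 and -0.15 over 81 members) nor the early level (0.10 and 0.12) ordered the members by their log2 ratio.

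**Figure D3:**
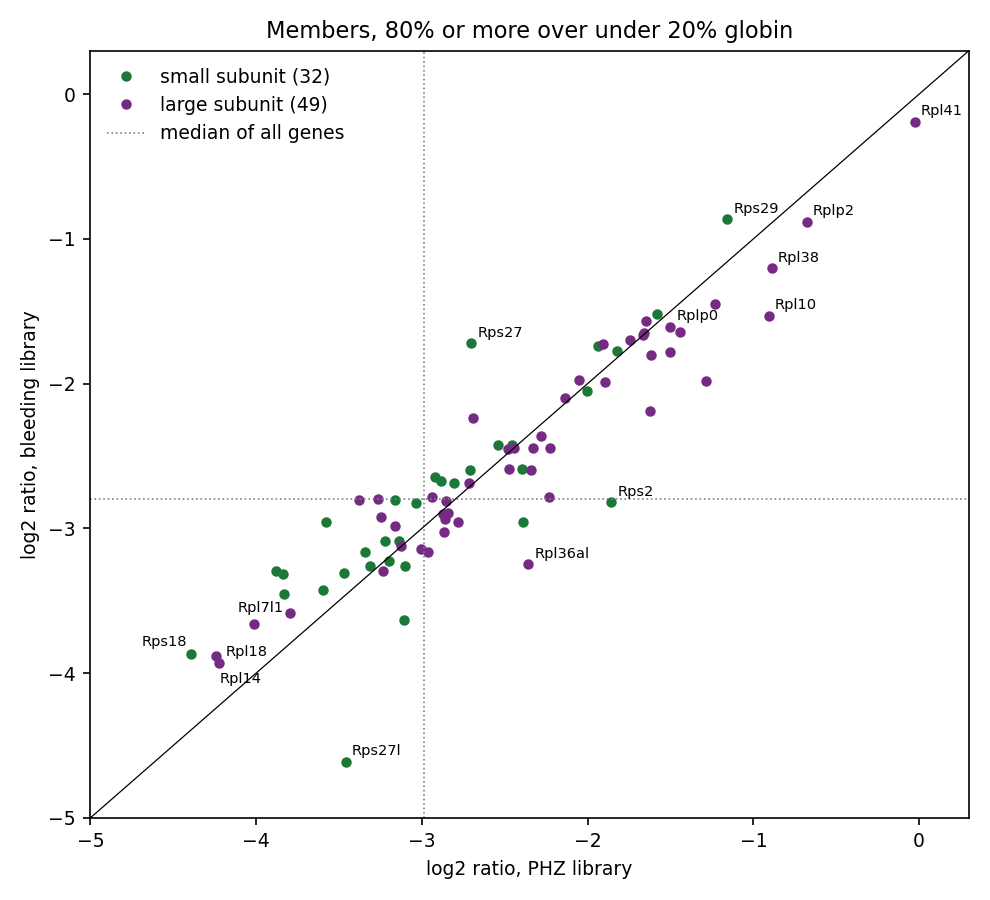
Log2 ratio of each member with 10 or more CPM between erythroid cells with 80% or more and with under 20% globin, for PHZ (x axis) and for bleeding (y axis). Each point is a member, coloured by subunit; the solid line marks equal values and dotted lines the median of all genes. Members spread along the line of equal values from Rps18 and Rps27l at the lower left to Rpl41 at the upper right.

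Because TOP control acts through the first bases of the mRNA, the start sites of members at both ends of this order were compared. Each line holds 30 bases of RefSeq promoter sequence on GRCm38.p6, from 15 bases before the annotated start through the first 15 bases of the transcript, 5′ to 3′ on the gene's strand. Capitals mark the longest run in this window that starts with C and holds only C and T.
Rpl41 (chr10:128549154-128549183, minus strand): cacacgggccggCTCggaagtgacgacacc
Rplp2 (chr7:141447636-141447665, plus strand): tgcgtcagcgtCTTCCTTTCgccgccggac
Rpl38 (chr11:114668565-114668594, plus strand): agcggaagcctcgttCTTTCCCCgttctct
Rps18 (chr17:33955651-33955680, minus strand): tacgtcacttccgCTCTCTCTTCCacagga
Rpl14 (chr9:120571502-120571531, plus strand): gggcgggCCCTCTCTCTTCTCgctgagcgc
Rpl18 (chr7:45718056-45718085, plus strand): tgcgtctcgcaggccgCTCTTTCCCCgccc

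The run was 3 bases long in Rpl41 and 9 and 8 in Rplp2 and Rpl38, against 11, 14 and 10 in Rps18, Rpl14 and Rpl18. Over the 61 members with a promoter entry and a level, however, run length had a Spearman correlation of 0.03 (PHZ) and 0.06 (bleeding) with the log2 ratio, so these examples do not stand for the members at large. Of the 64 members with an entry, 60.9% held a run of at least 5 bases and 37.5% one of at least 8, beside 36.4% and 9.09% of 27025 promoters. On the opposite strand the shares were 25% and 3.13% for members and 40.3% and 9.95% for all promoters. A run is a match of letters near an annotated start, and the start used in these cells was not measured.

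Other parts of the translation machinery were described from lists beside the members. Fau and Rack1, which encode a ribosomal protein of the small subunit fused to a ubiquitin-like protein and a scaffold protein of the small subunit, were also lower late. Fau was at 2888 CPM (PHZ) and 2818 (bleeding) early and 462 and 543 late, and Rack1 at 2451 and 2455 early and 241 and 271 late. Of 77 mitochondrial ribosomal protein genes tested, 76 were lower by over 1.5-fold in each library and 1 higher, with a median log2 ratio of -4.06 in both. Ribosome biogenesis factors had a median of -4.51 in both, with 34 of 35 (PHZ) and 35 of 36 (bleeding) tested genes lower by over 1.5-fold. Of all tested genes 82.4% (PHZ) and 82.1% (bleeding) were lower by over 1.5-fold, with median log2 ratios of -2.99 and -2.80. A gene could pass the level filter through its early level alone. Some late values rest on few UMIs, such as 3 and 7 for Mrpl39 and 6 and 6 for Nop2. Npm1, a nucleolar chaperone, went from 3469 and 3798 CPM to 90.8 and 81.3.

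Of 15 other TOP genes, 12 were lower by over 1.5-fold in each library and 3 higher, beside 82.4% and 82.1% of all genes lower and 10.8% in each library higher, so the count is near that of all genes. Eef1a1, the main elongation factor, was at 3575 CPM (PHZ) and 3689 (bleeding) early and 564 and 678 late. Tpt1 was instead at 3601 and 3783 early and 7415 and 8136 late, and Pabpc1, the cytoplasmic poly(A)-binding protein, at 825 and 798 early and 10970 and 12685 late. Among 9 ribosome rescue and quality control genes 6 were lower in each library, beside the same 82.4% and 82.1% of all genes. With so few genes this count cannot be set apart from the share of all genes. Rnf10, a ubiquitin ligase that marks stalled small subunits, was higher, from 109 and 99.7 CPM to 3670 and 3899.

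Both the size and the direction of this difference between early and late cells depend on the scale. The late over early ratio of the summed members was 0.213 (PHZ) and 0.203 (bleeding). It was 0.0213 and 0.0184 relative to all UMIs, haemoglobin included, 0.379 and 0.390 with every cell given equal weight, and 0.556 and 0.592 with median-of-ratios scaling, which uses the genes with 10 or more CPM in both ranges. Scaled instead to the median of all tested genes (a mean of 10 or more CPM over the ranges), which include genes that were nearly lost late, the summed members were higher late, at 1.69 and 1.41 times. With a background in proportion to each cell's UMIs subtracted it was 0.0258 and 0.0266. That background was set at 11.8% (PHZ) and 8.78% (bleeding) of all UMIs, haemoglobin included, and results below 0 were set to 0. In late cells it exceeded the ribosomal protein UMIs counted, so these values cannot be read as corrected for background. With median-of-ratios scaling, Rplp2, Rps29, Rpl38 and Rpl10 were above their early level in both libraries, at 1.01 to 1.63 times, and Rpl41 was at 2.56 times its early level in both.

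The mixture of members that made up the ribosomal protein mRNA also differed between classes. Rps24, Rplp1, Rps29 and Rpl13 held the most UMIs over all cells, 547177, 539909, 491828 and 461730. Rps24, of the small subunit, was at 8032 CPM (PHZ) and 8353 (bleeding) in T cell-like cells, 5584 and 6031 in B cell-like cells and 3945 and 3855 in cells with under 20% globin. Rpl41 made up 8.44% (PHZ) and 6.86% (bleeding) of ribosomal protein UMIs in erythroid cells with 80% or more globin, against a median over classes of 1.39% and 1.06% and 0.825% and 0.705% in T cell-like cells. Rplp2 made up 4.89% and 4.07% there, against medians of 1.76% and 1.72%. Rpl21, of the large subunit, peaked at 50 to 80% globin with 2.72% and 2.61%, against 1.10% and 1.16%. Rps2, a small subunit protein at the mRNA entry, was a larger part in erythroid cells than elsewhere, with 6893 and 7006 CPM under 20% globin against 2649 and 2813 in T cell-like cells.

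Members with a paralogue differed between cell types in the share that each side of the pair took. Rps27l, which differs from Rps27 in a few residues and is known as a target of p53, held 29.1% (PHZ) and 30.7% (bleeding) of the pair's UMIs in erythroid cells with under 20% globin. The share was 1.28% and 1.31% in T cell-like cells and 1.75% and 1.93% in B cell-like cells. Both sides of the pair contributed: Rps27l was at 894 and 851 CPM in early erythroid cells and 79.1 and 74.4 in T cell-like cells, while Rps27 was at 2177 and 1926 and at 6103 and 5597. Rpl36al held 71.4% and 66.4% of its pair with Rpl36a in plasma cell-like cells, 51.9% and 50.6% in monocyte-like cells, 39.3% and 39.8% in early erythroid cells and 26.6% and 27.9% in T cell-like cells. The plasma cell value rests on 7 and 47 cells but was alike in both libraries.

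Rpl22l1, the paralogue of the RNA-binding protein Rpl22, held 30.7% and 29.8% of its pair in erythroid cells with under 20% globin and 58.4% and 51.2% at 50 to 80% globin, where Rpl22 had gone from 1860 and 1821 CPM to 195 and 179 and Rpl22l1 from 824 and 775 to 274 and 188. In T cell-like cells it held 33% and 31.9%, and in plasma cell-like cells 11% and 16.4%. Rpl7l1, a nucleolar relative of Rpl7, held 4.74% and 5.06% early and 0.938% and 1.45% at 80% or more globin. In neutrophil-like cells it held 7.39% and 7.65%.

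The remaining paralogues were near absence. Rpl10l, the testis paralogue of Rpl10, had 0 UMIs. Rpl3l, the paralogue of Rpl3 known from heart and skeletal muscle, had 87 UMIs, of which 28 (PHZ) and 12 (bleeding) lay in monocyte-like cells and 21 and 14 in neutrophil-like cells. It was detected in 22 of 154 and 7 of 71 monocyte-like cells (median depths of 12964 and 10880 UMIs) and in 21 of 294 and 12 of 111 neutrophil-like cells (10220 and 4970 UMIs). In T cell-like cells it was found in 0 of 543 and 0 of 2156 (8587 and 7903 UMIs), which allows shares of cells with a UMI of up to 0.552% and 0.139% and sets no limit on cells that express the gene below detection. Rpl39l, the testis paralogue of Rpl39, had 89 UMIs in PHZ erythroid cells with under 20% globin, but these came from 3 cells of 437 and 49 of them from 1 cell. In the bleeding library it was found in 0 of 216 such cells, which allows up to 1.39% of cells with a UMI.

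**Figure D4:**
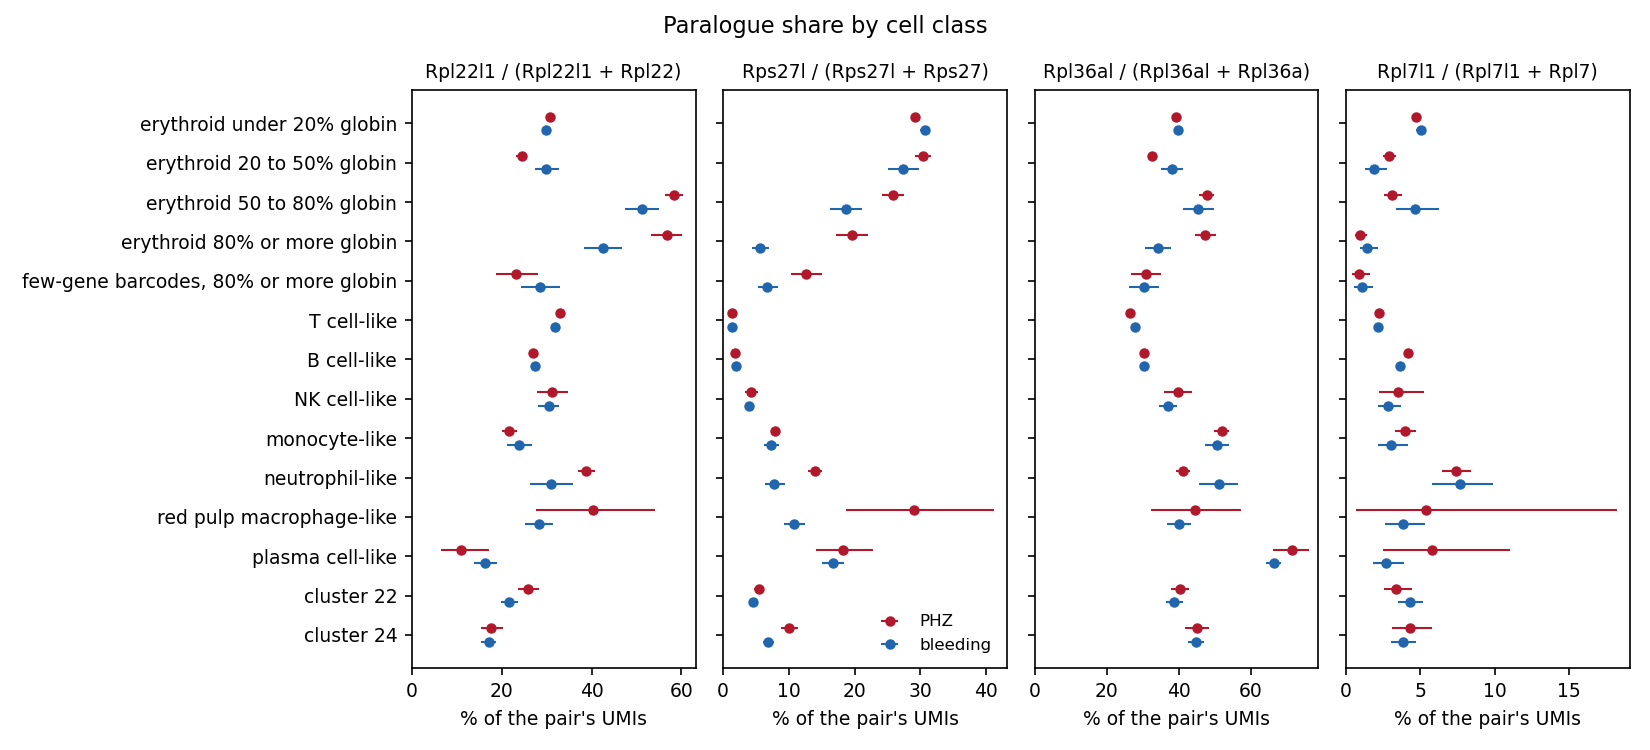
Share of a paralogue in the UMIs of the pair it forms with its parent gene (x axis, percent) by erythroid range and cell class (y axis), for Rpl22l1, Rps27l, Rpl36al and Rpl7l1. Points are summed UMIs of the PHZ (red) and bleeding (blue) library and bars exact 95% binomial intervals. Rps27l is at 29.1 and 30.7% in early erythroid cells and at 1.28 to 1.93% in T and B cell-like cells, and Rpl36al is at 71.4 and 66.4% in plasma cell-like cells.

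The 2 treatments were compared within each range and class. In erythroid cells with under 20% globin no member differed by over 1.5-fold, beside 0.571% of 7532 genes higher and 1.96% lower, and the members' log2 ratios of PHZ over bleeding lay between -0.12 and 0.27 with a median of 0.01. The summed share was 1.02 times as high (1.017 to 1.020). Rps28, a small subunit protein, had the highest ratio of the 81, at 2553 CPM against 2122 (1.203).

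At intermediate haemoglobin shares ribosomal protein mRNA was higher in the PHZ library. At 20 to 50% globin all 81 members had a ratio above 1, beside 51.2% of 6121 genes, and 6 were past 1.5-fold, beside 7.16%, with a median log2 ratio of 0.34. Rpl38 was at 1943 against 1199 CPM (1.62, 1.52 to 1.72), Rpl36 at 1384 against 862 and Rpl35 at 1718 against 1096. The summed share was 1.28 times as high (1.27 to 1.29). This range held few cells and they were unlike each other. The median depth was 15481 UMIs (PHZ) and 7989 (bleeding). Cluster 15 made up 19.0% and 25.4% of the cells and cluster 12 made up 8.90% and 18.1%. The part of depth and of cluster make-up in the ratio was not tested. The median cell had a share of 7.71% against 2.38%, and the medians without clusters 15 and 16 were 13.4% and 5.34%. The 3 cells with the most ribosomal protein UMIs held 6.92% (PHZ) and 22.7% (bleeding) of them. Without those 3 cells the share ratio was 1.45 and 32 members were past 1.5-fold, with equal weight per cell 62 were, with doublets kept 2, with ranges cut at 10, 40 and 70% globin 1, and with barcodes of 50 or more genes 25. The share of all genes past 1.5-fold was not computed under these settings, so these counts cannot be set against it.

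At 50 to 80% globin 68 of 81 members had a ratio above 1, beside 46.7% of 4934 genes, and 9 were higher by over 1.5-fold, beside 5.72%. Rps2 was at 1371 against 789 CPM (1.74, 1.64 to 1.84), Rpl35 at 652 against 386 and Rpl38 at 934 against 556. The summed share ratio was 1.22, and the median cell had 3.54% against 2.99%. The count of members past 1.5-fold was 22 with the proportional background subtracted, 5 with doublets kept and 4 with barcodes of 50 or more genes. Here too the share of all genes was not computed under these settings. In both intermediate ranges markers of lymphocytes were higher in the bleeding library: the 16 B cell markers, all detected, summed to 118 and 399 CPM at 20 to 50% and to 122 and 428 CPM at 50 to 80% globin, and their part in the result was not tested.

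At 80% or more globin the members as a group were nearly level and single members departed in both directions. Their median log2 ratio was 0.02 beside 0.10 for all genes, and 41 of 80 had a ratio above 1, beside 57.7% of 3136 genes. Past 1.5-fold, 6 were higher, beside 17.9%, and 3 lower, beside 14%. The summed share ratio of 1.07 (1.065 to 1.082) did not keep its direction. It was 1.26 at 80 to 90% globin but 0.921 at 90 to 95%, and 0.978 with median-of-ratios scaling. With the proportional background subtracted it was 0.993, but that subtraction exceeded the ribosomal protein UMIs counted, so this value cannot show a direction. The median cell had 4.36% against 4.66%.

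Rps27l was at 81.2 CPM (PHZ) against 34.8 (bleeding), a ratio of 2.33 (1.78 to 3.08) on 212 and 75 UMIs. Rpl36al was at 224 against 113 CPM (1.99, 1.71 to 2.32), and Rps2 at 1904 against 993 (1.92, 1.82 to 2.02). Their direction was the same at 80 to 90% and at 90 to 95% globin, in each of clusters 1, 3 and 9, which hold most of these cells, and without the 3 richest cells. In the other direction, Rps27 was at 334 against 584 CPM (0.572, 0.524 to 0.625), Rps16 at 311 against 498 (0.625, 0.570 to 0.685) and Rps4x at 190 against 295 (0.643, 0.571 to 0.725). They kept this direction in the same subdivisions. Above 95% globin there were only 4 and 9 cells, in which Rps16 was higher with PHZ, Rps27l had a ratio of 0 and Rpl36al had no value. Rps27l thereby held 19.6% of its pair in the PHZ and 5.63% in the bleeding library, beside 29.1% and 30.7% under 20% globin.

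The late cells also carried RNA of other cells, unequally between the libraries. The 16 B cell markers summed to 362 CPM in the PHZ and 1293 CPM in the bleeding library and the 17 T cell markers to 57.1 and 311 CPM, with all of them detected, while 15 neutrophil markers summed to 1362 and 718 CPM. B cell-like cells had 27835 and 28663 CPM of their own markers and 5207 and 4777 CPM of Rps27. A fixed background per barcode was also subtracted, an alternative chosen after seeing the data. With it, Rps27 had a ratio of 0.547, Rps16 of 0.583, Rps4x of 0.591, Rps2 of 1.97 and Rps27l of 2.35. The part of RNA from lymphocytes in these ratios was not tested.

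In the few-gene barcodes 65 of 80 members had a ratio above 1, beside 54.1% of 3278 genes, and 21 of the 80 were higher by over 1.5-fold, beside 21.3% of all genes. Rpl28, of the large subunit, was at 1511 against 807 CPM, Rpl24 at 938 against 505 and Rpl37a at 1398 against 774. The summed share was 6.61% against 4.92% (1.34, 1.33 to 1.35). After subtraction of the proportional background the ratio was 0.910. In these barcodes that subtraction exceeded the ribosomal protein UMIs counted, so this value cannot be read as a corrected ratio. The B cell markers summed to 518 and 1458 CPM in these barcodes.

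Lymphocytes differed less. In T cell-like cells no member was past 1.5-fold, beside 1.78% of 8225 genes higher and 0.401% lower, and the summed share ratio was 0.978 (0.976 to 0.980). The T cell clusters did not share a direction: cluster 2 (195 and 849 cells) and cluster 4 (151 and 718 cells), the largest, had ratios of 1.022 and 1.020, the small cluster 26 of 1.06, cluster 11 of 0.974 and cluster 14 of 0.840. In B cell-like cells 10 of 81 members had a ratio above 1, beside 60.3% of 8294 genes, none was past 1.5-fold in either direction, beside 1.42% higher and 0.844% lower, and the share ratio was 0.911 (0.910 to 0.913). Rps2 was at 1809 against 2389 CPM, the stalk base Rplp0 at 1804 against 2312 and Rpsa, the laminin receptor precursor of the small subunit, at 2697 against 3332. B cell clusters differed in share and in frequency. Cluster 6, with 14.6% and 15.9%, held 24.9% (PHZ) and 8.91% (bleeding) of the class's UMIs. Cluster 0, with the most B cells, had 19.77% and 19.97%. Without clusters 6 and 25 the share ratio was 0.964 (0.962 to 0.966).

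In neutrophil-like cells 79 of 81 members had a ratio above 1, beside 51% of 6989 genes, and 41 were higher by over 1.5-fold, beside 13.2%. Rps2 was at 1190 against 439 CPM (2.71, 2.47 to 2.98), Rpl36a at 394 against 151 and Rpl14 at 531 against 234. The summed share of 7.23% against 4.87% (1.49, 1.472 to 1.499) rested on a minority of cells: 11 of 294 and 1 of 111 had a share of at least 15%, and the 3 richest cells held 23.3% and 20.5% of the ribosomal protein UMIs. The median cell had 2.83% against 3.25%, and with equal weight per cell the ratio was 0.991. The 16 B cell markers, all detected, summed to 111 and 446 CPM in this class and the 17 T cell markers, 10 and 16 of them detected, to 17 and 289 CPM, and their part in the result was not tested. Cluster 17 had 7.75% and 5.27% (185 and 48 cells) and cluster 21 had 3.20% and 3.43% (109 and 63 cells). NK cell-like and monocyte-like cells had share ratios of 0.988 and 0.997, with no member past 1.5-fold in either class, beside 11.9% and 8.92% of genes higher and 10.7% and 7.48% lower. In cluster 22 Rpl31 was the 1 member past 1.5-fold, at 1591 against 988 CPM, beside 11.1% of genes higher.

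**Figure D5:**
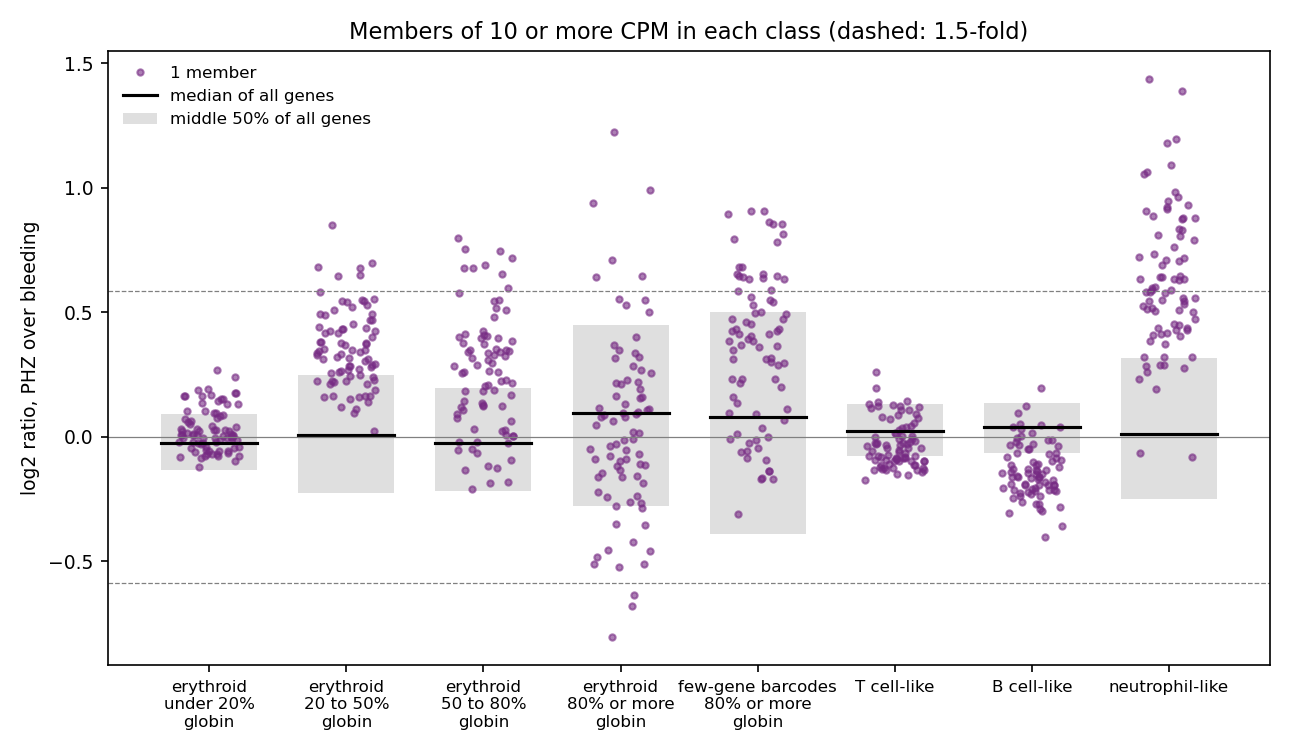
Log2 ratio of PHZ over bleeding (y axis) for each member with 10 or more CPM in 8 erythroid ranges and cell classes (x axis). Points are members, the black bar is the median of all genes of that level, the grey box their middle 50% and the dashed lines 1.5-fold. Members lie around 0 under 20% globin, above it at 20 to 80% globin and in neutrophil-like cells, and mostly below it in B cell-like cells.

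Within the ribosomal protein mRNA, some members differed between the libraries in the same direction in every class. Each member was taken relative to the summed members, in 11 ranges and classes and for the 80 members with a value in each. Rpl31, Rpl35, Rpl36a, Rpl39, Rpl41 and Rplp2 were a larger part in the PHZ library in all 11, by log2 0.09 to 0.39 for Rpl41. Rpl13a, Rpl5, Rpl9, Rps13, Rps16 and Rps7 were among those that were a smaller part in all 11, by log2 -0.46 to -0.03 for Rpl5. Rps28 was a larger part in 10 of 11. The classes share 2 libraries, so they are not replicates of this difference. The difference moved with transcript length, with a Spearman correlation of -0.54 in erythroid cells with under 20% globin, -0.56 in T cell-like and -0.51 in B cell-like cells over 81 members each, and -0.10 at 80% or more globin over 80. In the other ranges and classes the correlation was weaker than in those early erythroid, T and B cell-like cells, between -0.38 in cluster 22 and -0.11 in neutrophil-like cells. Members with short transcripts thus tended to be a larger part in the PHZ library, clearly so only in some classes. A difference in library preparation cannot be told apart from treatment with 1 library per group.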

How the data were processed

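The deposited matrices hold raw counts of UMIs, 1 spleen library each for PHZ and bleeding, empty droplets included: 128130213 and 145260780 UMIs over 1608470 and 1698351 barcodes. Reads were counted with Cell Ranger 7.0.0 against mm10, per the submitters' processing notes, while the deposited matrix header names version 4. The annotation release and the use of intronic reads are not given in the sources used here.

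A cell had at least 1000 UMIs, 300 genes and at most 10% mitochondrial UMIs (6445 and 9707 barcodes). Scrublet in scanpy 1.11.5 removed 332 and 754 doublets. Cells of both libraries were clustered together (Leiden, resolution 1) without ribosomal protein, haemoglobin, mitochondrial, immunoglobulin, T cell receptor and sex-linked genes, and classes were named from marker lists. UMIs were summed per class and library. No p-value was computed. Ratio intervals are exact conditional 95% intervals and share intervals exact binomial ones. Only the ratio interval was run on simulated data. These were Poisson counts, which the interval itself assumes, so the run cannot show how differences between cells affect it.

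The members were chosen by the form of their symbols alone. That rule, the lists and the rule for named genes were set with earlier results of these data known. The text names the 4 members with the most UMIs, up to 3 per direction and class by the interval bound, 5 per direction along maturation, 5 by their share in a class, and all paralogues. Some genes are not reported here by name. Rps19 and the early value of Rps28 were added after their values were seen. All 84 members matched GENCODE M21 by identifier, used for transcript length, and 64 had a RefSeq promoter entry. Figures were drawn with matplotlib 3.10.9.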

Additional observations from a re-analysis of the deposited data

Results flagged for a closer look

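The share of ribosomal protein UMIs differed between the PHZ and the bleeding library beyond counting error, by more than 5%, in 6 of the 11 ranges and classes that had 50 cells or more on both sides, and not in the same direction in all of them. The ratio of PHZ over bleeding was 1.28 in erythroid cells with 20 to 50% globin, 1.22 at 50 to 80% and 1.07 at 80% or more. It was 1.34 in the few-gene barcodes and 1.49 in neutrophil-like cells, but 0.911 in B cell-like cells. In the early erythroid cells the ratio was 1.02 and in T cell-like cells 0.978. The difference between classes was not tested, because each treatment was a single library.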

How the results depend on the processing

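The early-to-late difference of the summed members kept its direction under every alternative but 1. The ratio was 0.213 (PHZ) and 0.203 (bleeding) and became 0.0213 and 0.0184 relative to all UMIs, 0.379 and 0.390 with equal weight per cell, 0.556 and 0.592 with median-of-ratios scaling, 0.0258 and 0.0266 with proportional and 0.192 and 0.178 with fixed background subtracted, 0.212 and 0.200 with at least 2000 UMIs, 0.225 and 0.195 with at least 50 genes, 0.211 and 0.201 at resolution 2, 0.183 and 0.179 with ranges cut at 10, 40 and 70%, and 0.206 and 0.196 without clusters 15 and 16. In the PHZ library it was 0.212 without the 3 richest cells and 0.182 for late cells of 90 to 95% globin. Scaled to the median of all tested genes, an alternative added after seeing the data, it was reversed, at 1.69 and 1.41, as were Rplp2 (4.96 and 3.77), Rps29 (3.56 and 3.81), Rpl38 (4.28 and 3.02), Rpl10 (4.23 and 2.40) and, in the bleeding library, Rpl41 (6.09). Single members also crossed their early level with equal weight per cell (Rplp2 1.06 and Rpl10 1.001 in the PHZ library, Rpl41 1.53 in the bleeding library) and with median-of-ratios scaling (PHZ Rplp2 1.63, Rps29 1.17, Rpl38 1.41, Rpl10 1.39; bleeding Rpl41 2.56, Rplp2 1.59, Rps29 1.60, Rpl38 1.27, Rpl10 1.01).

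The ratios of PHZ over bleeding for the 20 to 50, 50 to 80 and 80% or more ranges were 1.28, 1.22 and 1.07, in this order throughout. With equal weight per cell they were 1.64, 1.25 and 1.02, without doublet removal 1.15, 1.10 and 1.09, with at least 50 genes 1.42, 1.13 and 1.17, and with the other cuts 1.13, 1.33 and 1.047. With proportional background subtracted they were 1.30, 1.21 and 0.993. At 80% or more globin that subtraction exceeded the ribosomal protein UMIs counted. Neither 0.993 nor the early-to-late ratios above with it can be read as corrected. Ratios at 50 to 80% and at 80% or more were 1.27 and 1.16 relative to all UMIs, 1.24 and 0.978 with median-of-ratios scaling, and 1.24 and 1.10 with fixed background subtracted. At 20 to 50% the ratio was 1.25 at resolution 2, 1.26 with at least 2000 UMIs, 1.24 without clusters 15 and 16 and 1.45 without the 3 richest cells, which gave 1.27 at 50 to 80%. For late cells of 90 to 95% globin it was 0.921. Under 20% globin the ratio of 1.02 was 1.01 relative to all UMIs, with at least 2000 UMIs or 50 genes, 1.02 with proportional background subtracted, 1.03 with median-of-ratios scaling, doublets kept or the 3 richest cells left out, and 1.06 with equal weight per cell.

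The median log2 ratio of the members at 20 to 50% (0.34) was 0.73 with equal weight per cell, 0.16 with the other cuts, 0.48 with at least 50 genes, 0.20 with doublets kept and 0.53 without the 3 richest cells, and members past 1.5-fold numbered 62, 1, 25, 2 and 32 in place of 6. At 50 to 80% they numbered 22 with proportional background subtracted, 4 with at least 50 genes and 5 with doublets kept, in place of 9. At 80% or more they numbered 14 with fixed background subtracted and 14 at 90 to 95% globin, where the median was -0.23, in place of 9. Under 20% globin 2 were past it when genes with 1 or more UMI were kept, in place of 0. The share of all genes past 1.5-fold was not computed under these alternatives, so the counts do not single out the members.

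For B cell-like cells (0.911) the ratio was 0.875 relative to all UMIs, 0.906 and 0.910 with proportional and fixed background subtracted, 0.925 with equal weight per cell, 0.887 with median-of-ratios scaling, 0.920 with doublets kept, 0.909 without the 3 richest cells and 0.964 without clusters 6 and 25, where Rpl3l had 0 PHZ UMIs. For T cell-like cells (0.978) it was 0.959 relative to all UMIs, 0.963 with equal weight per cell, 0.964 with median-of-ratios scaling, 0.982 with at least 50 genes and 0.976 without the 3 richest cells. Cluster 22 crossed 1 relative to all UMIs (0.969) and with median-of-ratios scaling (0.993), and the neutrophil-like cells with equal weight per cell (0.991). The few-gene barcodes crossed 1 with proportional background subtracted (0.910), where that subtraction exceeded the ribosomal protein UMIs counted. The cause of these shifts was not tested. Alternatives without clusters 15 and 16, without the 3 richest cells, at 90 to 95% globin, without B cell clusters 6 and 25 and with a fixed background were chosen after seeing the data. No paired analysis was possible because each group is 1 library, and for the same reason no replicate could be left out. Depth limits the few-gene barcodes, with on average 33.8 and 30.2 ribosomal protein UMIs, and the late cells, with 85.1 and 65.6, beside 12.9 and 12.2 of estimated background.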
